A study of Vitis vinifera with 54 samples.

Results

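The 4 genes described here mark successive parts of flavonoid synthesis and were followed in the flesh of Chardonnay, a white grapevine (*Vitis vinifera*) cultivar. They were picked by NCBI Gene number and are 4 of the 25133 genes measured: CHS3 (gene 100258106), DFR (gene 100233141), UFGT (gene 100233099) and VVGT6 (gene 100244489). Berries came from 6 ecological zones of Ningxia, China, named HJZ, ZHYS, CC, XG, XLS and HSB, and were collected at 40, 80 and 120 days after the early flowering period (DAP). These stages are the enlargement period (E), the color transition period (V) and the maturity period (M), which gave 18 groups such as E-HJZ, each with 3 libraries and 54 libraries in all. Every library was made from flesh freed of skin and seeds, no group was treated, and a zone stands for everything that differed between the sites. The tissue is therefore not the one in which grapes are best known for color, which is the skin.

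Chalcone synthase, the enzyme that CHS3 encodes, makes the chalcone from which all flavonoids derive. Dihydroflavonol 4-reductase, encoded by DFR, then reduces dihydroflavonols to leucoanthocyanidins, which serve both the anthocyanins (red and blue pigments) and the proanthocyanidins (condensed tannins). UFGT encodes UDP-glucose:flavonoid 3-O-glucosyltransferase, which adds the sugar that makes anthocyanins stable, and in grape its expression depends on MYBA transcription factors. VVGT6 encodes a relative of UFGT known to attach sugars to flavonols, the colorless branch of the pathway.

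CHS3 and DFR were abundant in every library, whereas UFGT was near 0 throughout and VVGT6 was low. Levels are given as TPM, the transcript measure that is scaled for gene length and for the total of the library, so that genes can be set beside each other. The level of CHS3 ranged from 25.93 to 320.94 TPM over the 54 libraries, and that of DFR from 38.44 to 257 TPM. By their mean over all libraries, CHS3 lay above 95.1% and DFR above 95.2% of all genes. UFGT did not exceed 3 TPM in any library, was listed at 0 in 7 of 54 and reached 1 TPM in 7. VVGT6 ranged from 0 to 9 TPM, was listed at 0 in 1 library and reached 1 TPM in 33 of 54. The mean of UFGT lay above 29.7% of all genes and that of VVGT6 above 43.2%. The 2 early and middle steps and the 2 sugar transferases did not overlap in any library. As the samples were bulk flesh, fewer cells of a type and less RNA per cell cannot be told apart in any of these values.

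**Figure D1:**
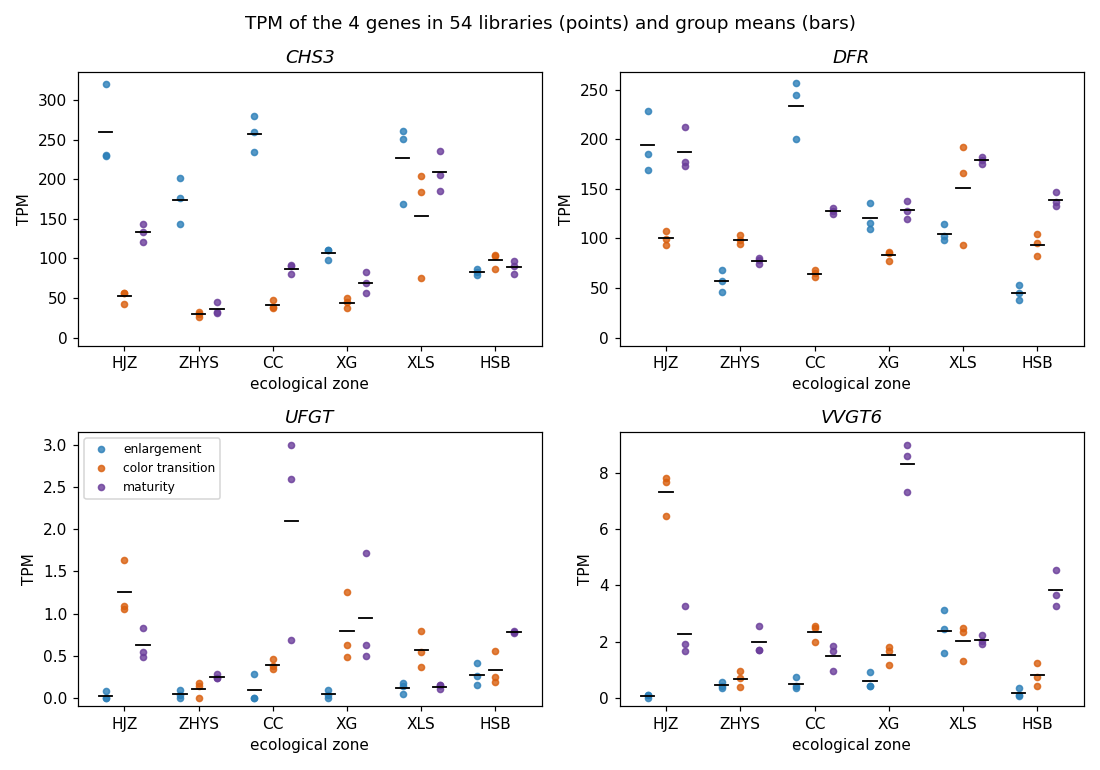
TPM of CHS3, DFR, UFGT and VVGT6 in each library (points, colored by stage) and the mean of each group (bars) in the 6 zones; each panel has its own linear axis. CHS3 spans 25.93 to 320.94 TPM and UFGT 0 to 3 TPM, with the highest UFGT points in M-CC.

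The libraries differed in composition, and some stood apart from the others of their group or stage. The 100 most abundant genes took between 29.1% (E-HSB) and 61.4% (E-HJZ) of the TPM of a group, and TPM keeps no sequencing depth, so the precision of a low value is known only from its replicates. Replicate 2 of V-XLS stood apart from the other V-XLS libraries, and not only in the flavonoid genes. Its 100 most abundant genes took 43.2% of its TPM, against 38.1% and 37.3% in the others. Its CHS3 level was 74.78 TPM, against 183.77 and 204.17 TPM, and its DFR level was 92.94 TPM, against 166.05 and 192.22 TPM. In the same library LAR2, a leucoanthocyanidin reductase of tannin synthesis, was at 46.52 TPM, against 4.93 and 5.94 TPM. V-HSB had the lowest level of the V groups for all 4 ripening genes on the marker list (GRIP4, GRIP22, GRIP61 and TL3). GRIP22, for example, averaged 661 TPM in V-HSB and 10303.5 TPM in V-ZHYS, and did not exceed 96.6 TPM in any E group. Nothing in the labels says more on either point, and their part in the results was not tested beyond the values without them.

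CHS3 was highest in the enlargement period and fell by the color transition period in most zones. In HJZ its level was 229.63, 320.94 and 230.20 TPM at E and 56.97, 42.83 and 56.67 TPM at V. All V libraries were lower than all E libraries there. In CC the E libraries had 234.07, 279.67 and 259.65 TPM and the V libraries 37.47, 38.34 and 47.56 TPM. In ZHYS the values went from 143.20, 201.43 and 176.87 TPM to 25.93, 32.73 and 29.83 TPM, the lowest CHS3 levels of the series. XG started lower, with 98.34, 110.16 and 110.59 TPM at E, and had 37.10, 50.28 and 45.18 TPM at V. In these 4 zones the E and V libraries did not overlap.

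XLS and HSB did not share this fall. XLS kept a high level throughout, with 261.36, 168.56 and 250.43 TPM at E, 183.77, 74.78 and 204.17 TPM at V and 185.47, 205.88 and 235.15 TPM at M. The stages overlapped in XLS. HSB had 86.48, 78.90 and 83.51 TPM at E and 87.07, 104.26 and 103.64 TPM at V, so that its V libraries all lay above its E libraries. E-HSB was thus the lowest E group for CHS3, whereas V-HSB was the highest V group after V-XLS.

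On the log2(TPM + 1) scale, on which all changes and tests are given and which understates the change of low genes, the mean CHS3 change from E to V over the 6 zones was -1.52 (SE 0.09; limma adjusted p = 2.37e-18). CHS3 changed by -2.29 in HJZ, -2.51 in ZHYS, -2.62 in CC and -1.26 in XG, and each of these falls passed the threshold of an adjusted p below 0.05 and a change above 1 (limma adjusted p from 2.13e-13 to 5.19e-06). The change was -0.65 in XLS and 0.24 in HSB, and neither passed. Without replicate 2 of V-XLS the XLS value was -0.20 and the mean over zones -1.44, still past the threshold. Among the 4 genes CHS3 was the only 1 called for the mean E to V change, against 13.2% of all genes. The mean level over zones was 185 TPM at E, 69.9 TPM at V and 104 TPM at M.

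From V to M, CHS3 had a positive change in 5 of 6 zones, and the change was called in 2, HJZ and CC. It went from the V values above to 143.95, 121.29 and 133.39 TPM in M-HJZ and to 90.29, 80.10 and 91.17 TPM in M-CC, with no overlap in either. These rises were 1.34 (SE 0.22; limma adjusted p = 2.65e-05) and 1.07 (SE 0.22; limma adjusted p = 0.000235). The CC rise fell short of the limit on the change after median-of-ratios scaling (0.87) and after quantile normalization (0.81). CHS3 was at 31.20, 45.21 and 32.92 TPM in M-ZHYS and at 82.57, 69.27 and 56.09 TPM in M-XG, with changes of 0.28 and 0.63 that were not called. The V and M libraries overlapped in ZHYS, whereas in XG all M libraries lay above the V libraries. The change was 0.56 in XLS, or 0.10 without replicate 2 of V-XLS, and -0.14 in HSB, and neither was called. The mean over zones was 0.62 from V to M and -0.89 from E to M, and neither passed the limit on the change, although the latter did without zone HSB (-1.09) and after quantile normalization (-1.21).

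The order of CHS3 levels over the 18 groups ran from E-HJZ (260 ± 52.6 TPM; SD, n = 3) and E-CC (258 ± 22.9 TPM) to M-ZHYS (36.4 ± 7.64 TPM) and V-ZHYS (29.5 ± 3.41 TPM). Of the 17 pairs of neighbors in this order, only M-HJZ and E-XG did not overlap.

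DFR showed no common direction from E to V. Its level fell in CC from 200.12, 257.00 and 244.35 TPM to 65.25, 61.01 and 67.71 TPM. It rose in HSB from 52.90, 44.56 and 38.44 TPM to 81.86, 104.18 and 95.59 TPM. The libraries of the earlier and later stage did not overlap in either zone, and the changes were of opposite sign. The fall in CC was -1.83 (SE 0.15; limma adjusted p = 2.70e-13) and the rise in HSB 1.04 (SE 0.15; limma adjusted p = 1.35e-06). The HSB rise lay close to the limit and was not called without replicate 3 of E-HSB (0.93) or replicate 2 of V-HSB (0.96).

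The other zones lay between these for DFR. In HJZ the levels were 168.96, 228.29 and 184.99 TPM at E and 107.08, 93.42 and 99.70 TPM at V, a change of -0.94 that was not called here but passed after median-of-ratios scaling (-1.45), after quantile normalization (-1.57) and without replicate 1 of E-HJZ (-1.03). In ZHYS, 46.45, 67.78 and 57.02 TPM at E were followed by 103.56, 98.29 and 94.74 TPM at V, with every V library above every E library and a change of 0.80. XG went from 109.95, 115.69 and 135.44 TPM to 77.40, 85.33 and 86.45 TPM, a change of -0.53. XLS went from 114.82, 98.05 and 102.07 TPM to 166.05, 92.94 and 192.22 TPM, a change of 0.45, or 0.76 without replicate 2 of V-XLS. The mean over zones was -0.17 (SE 0.06; limma adjusted p = 0.0160), far below the limit on the change.

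From V to M the DFR change was positive in 5 of 6 zones, and no zone passed. M-HJZ had 212.52, 172.75 and 177.43 TPM, M-CC 127.71, 124.88 and 130.57 TPM, M-XG 127.84, 138.22 and 119.20 TPM and M-HSB 137.15, 132.45 and 147.06 TPM. All of these lay above the V libraries of the same zone, with changes of 0.90, 0.97, 0.62 and 0.57. The HSB value passed the limit after median-of-ratios scaling (1.09), and the CC value without replicate 3 of V-CC (1.01). XLS had 175.02, 182.52 and 178.77 TPM at M, which overlapped with V, and its change of 0.31 was near 0 without replicate 2 of V-XLS (0.00068). ZHYS was the exception, with 78.13, 79.90 and 74.65 TPM at M, all below its V libraries. The mean over zones was 0.50 (SE 0.06; limma adjusted p = 5.97e-09). DFR was highest in E-CC (234 ± 29.9 TPM; SD, n = 3) and lowest in E-HSB (45.3 ± 7.26 TPM), so that both ends of its order were E groups, and only M-ZHYS and V-CC of 17 neighboring pairs did not overlap.

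More libraries had CHS3 above DFR at E than at V or M, which is a description, as libraries share zones. CHS3 exceeded DFR in 15 of 18 libraries at E, in 5 of 18 at V and in 3 of 18 at M. The median ratio of CHS3 to DFR was 1.52 at E (0.817 to 3.10), 0.582 at V (0.25 to 1.11) and 0.662 at M (0.399 to 1.32). ZHYS had both extremes, with ratios of 2.97 to 3.10 at E and 0.25 to 0.333 at V. XG was the only zone in which DFR exceeded CHS3 in all E libraries (0.817 to 0.952). In XLS alone CHS3 stayed above DFR in all M libraries (1.06 to 1.32).

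**Figure D2:**
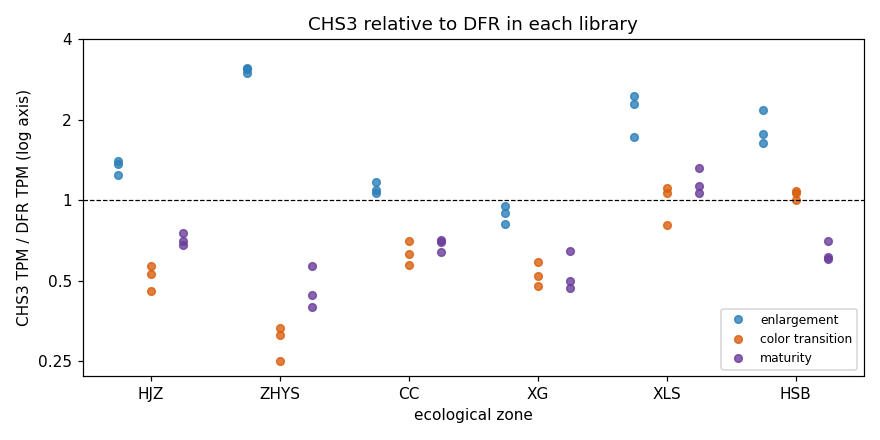
Ratio of CHS3 to DFR TPM in each library (points, colored by stage) in the 6 zones, on a log axis with a dashed line at equal levels. The ratio is above 1 in 15 of 18 E libraries and below 1 in 15 of 18 M libraries.

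The CHS3 change minus the DFR change from E to V was -1.35 on average and negative in 6 of 6 zones (-3.31 to -0.73). With 6 zones the exact two-sided sign-flip permutation test cannot go below 0.03125, which is the p obtained, and its adjusted value over 6 such tests was 0.094. The same difference from E to M was -1.23 and also negative in 6 of 6 zones, with the same exact permutation p of 0.03125 (adjusted 0.094), while from V to M it was 0.12 (exact permutation p = 0.531, adjusted 0.594). None of the 6 tests was below 0.05 after adjustment.

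UFGT was barely detected at E and stayed low later. At E its highest value in any library was 0.41 TPM and it was listed at 0 in 6 of 18 libraries. HJZ had 0.08, 0 and 0 TPM at E and 1.05, 1.09 and 1.64 TPM at V, without overlap. XG had 0, 0.04 and 0.09 TPM at E and 0.49, 1.25 and 0.63 TPM at V. In ZHYS the values remained at 0.09, 0 and 0.04 TPM at E, 0.18, 0 and 0.14 TPM at V and 0.24, 0.28 and 0.24 TPM at M. The UFGT signal at V was thus unequal among zones, being highest in HJZ and lowest in ZHYS.

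The highest UFGT values of the series were in M-CC, where replicates 1 and 3 had 3 and 2.59 TPM and replicate 2 had 0.69 TPM. M-XG was similarly uneven, with 1.72, 0.63 and 0.50 TPM, while M-HSB had 0.78, 0.77 and 0.79 TPM. M-HJZ had 0.55, 0.49 and 0.83 TPM, all below V-HJZ. M-XLS had 0.15, 0.15 and 0.10 TPM, all below the 0.54, 0.37 and 0.79 TPM of V-XLS. CC had 0, 0.28 and 0 TPM at E and 0.34, 0.46 and 0.38 TPM at V, HSB had 0.41, 0.15 and 0.26 TPM at E and 0.19, 0.25 and 0.56 TPM at V, and XLS had 0.05, 0.14 and 0.18 TPM at E.

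UFGT rose from E to V in HJZ by 1.13 (SE 0.19; limma adjusted p = 2.65e-06) and from V to M in CC by 1.06 (SE 0.19; limma adjusted p = 5.48e-05). The CC rise was not called without replicate 1 (0.82) or replicate 3 (0.90) of M-CC, nor in a fit of V-CC and M-CC alone (adjusted p = 0.0964). The mean changes over zones were 0.48 from E to V, 0.14 from V to M and 0.61 from E to M, none past the limit on the change. The choice of pseudocount decided this for UFGT, as adding 0.1 TPM in place of 1 TPM gave mean changes of 1.65 (E to V) and 1.94 (E to M), both called. Such changes concern values below 1 TPM. Relative to DFR, the median was 0.569 TPM of UFGT per 1000 TPM of DFR at E, 5.41 at V and 4.38 at M, and the highest library, in M-CC, had 23.5.

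VVGT6 increased from the enlargement to the maturity period, by routes that differed between zones. In HJZ its level was 0.09, 0 and 0.09 TPM at E, 6.45, 7.67 and 7.81 TPM at V and 1.66, 1.91 and 3.28 TPM at M. It thus peaked at V there, with no overlap between any of the stages. In XG the values were 0.91, 0.43 and 0.44 TPM at E, 1.17, 1.66 and 1.80 TPM at V and 8.61, 9 and 7.31 TPM at M, a late rise to the highest level of the series. HSB followed the same course at a lower level, with 0.34, 0.11 and 0.06 TPM, then 0.42, 0.76 and 1.25 TPM, then 4.54, 3.28 and 3.66 TPM.

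ZHYS, CC and XLS varied less in VVGT6. ZHYS had 0.43, 0.57 and 0.35 TPM at E, 0.95, 0.40 and 0.71 TPM at V and 1.69, 1.69 and 2.55 TPM at M. CC had 0.73, 0.37 and 0.41 TPM at E, 1.99, 2.56 and 2.47 TPM at V and 1.85, 0.96 and 1.68 TPM at M, so that its M libraries lay below its V libraries. XLS had 1.61, 3.11 and 2.44 TPM at E, 2.33, 1.31 and 2.48 TPM at V and 1.93, 2.22 and 2.03 TPM at M, and its stages overlapped. E-XLS was the only E group whose libraries were all above 1 TPM.

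The mean VVGT6 change from E to M was 1.30 (SE 0.07; limma adjusted p = 7.08e-19), and it was positive in 5 of 6 zones. VVGT6 was the only 1 of the 4 genes called for the mean E to M change, against 21.4% of all genes. The mean E to V change of 0.91 and the mean V to M change of 0.39 were not called, although the former passed with a pseudocount of 0.1 TPM (1.83) and after quantile normalization (1.12). Within zones it rose from E to V in HJZ by 2.97 (SE 0.18; limma adjusted p = 3.98e-17) and in CC by 1.16 (SE 0.18; limma adjusted p = 7.72e-07). From V to M it rose by 1.88 in XG and by 1.43 in HSB and fell by 1.37 in HJZ (SE 0.18 for each; limma adjusted p = 4.79e-11, 9.66e-09 and 2.08e-06).

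Between the 2 transferases, VVGT6 exceeded UFGT in 48 of 54 libraries, with the exceptions at E and M. The VVGT6 change minus the UFGT change averaged 0.43 from E to V, 0.25 from V to M and 0.69 from E to M, each positive in 4 of 6 zones. The exact sign-flip permutation p values were 0.281, 0.594 and 0.156, and the adjusted values 0.422, 0.594 and 0.313, so that no difference was shown. In the order of the 18 groups, M-XG (8.31 ± 0.88 TPM; SD, n = 3) and V-HJZ (7.31 ± 0.75 TPM) overlapped with each other, and V-HJZ lay apart from M-HSB, the group after it.

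**Figure D3:**
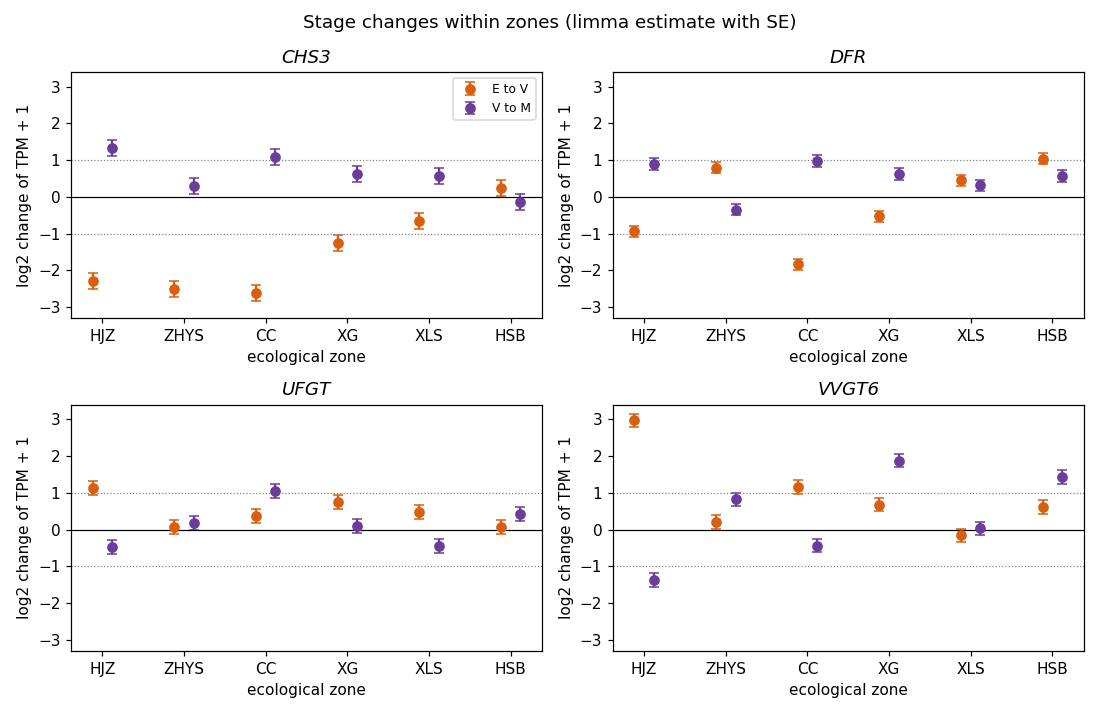
Change on the log2(TPM + 1) scale from E to V and from V to M in each of the 6 zones for the 4 genes; points are limma estimates, bars their SE and dotted lines the limit of 1. CHS3 falls from E to V by up to 2.62 in CC, and VVGT6 rises by 2.97 in HJZ from E to V and falls by 1.37 from V to M.

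The number of the 4 genes called within a zone varied, as did the share of all genes called. From E to V, 3 of 4 were called in HJZ (23.6% of all genes) and 3 in CC (23.6%), 1 in ZHYS (19.3%), 1 in XG (16.7%), 0 in XLS (18.8%) and 1 in HSB (3.68%). From V to M, 2 of 4 were called in HJZ (2.33% of all genes) and 2 in CC (2.81%), 1 in XG (13.4%), 1 in HSB (23.9%) and 0 in ZHYS (9.18%) and XLS (1.23%). For the V to M change averaged over zones, 0 of 4 were called, against 3.5% of all genes, although 3 of the 4 (CHS3, DFR and VVGT6) had a limma adjusted p below 0.05 with a change under the limit. Where 0 were called, an unadjusted limma p below 0.05 was found for 3 of 4 genes from E to V in XLS, for 2 from V to M in ZHYS, for 3 from V to M in XLS and for 3 in the mean V to M change. The share of all genes that pass without the limit on the change is not given here. Such looser counts are therefore not a result about the 4 genes. The counts of called genes depend on the pseudocount: with 0.1 TPM, UFGT was also called from E to V in CC, XG and XLS and from V to M in XLS and HSB, and VVGT6 from E to V in XG and HSB and from V to M in ZHYS. Over all genes, the CC libraries had a median E to V change of -0.21 and the HSB libraries a median V to M change of -0.21, and the other 10 medians lay within 0.1 of 0. These medians also cover genes near 0 TPM, so they do not show all differences in scale. The factors of the median-of-ratios scaling, from 16546 genes above 0 in every library, ran from 0.64 (replicate 2 of E-HJZ) to 1.45 (replicate 1 of E-HSB).

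All 4 genes varied among zones at the later stages. At E, CHS3, DFR and VVGT6 differed among the 6 zones, with 1.62, 2.35 and 1.65 between the highest and lowest zone mean (limma moderated F, adjusted p = 2.75e-09, 3.53e-17 and 2.26e-09). The size of these ranges depended on the processing. Other settings gave 1.27 to 2.67 for CHS3, 2.02 to 3.11 for DFR and 1.25 to 3.97 for VVGT6. UFGT had a range of 0.31 at E and was not called (adjusted p = 0.673), but had a range of 1.56 and was called with a pseudocount of 0.1 TPM. This made 3 of 4 against 46.3% of all genes. At V the ranges were 2.23 for CHS3, 1.14 for DFR, 1.02 for UFGT and 2.31 for VVGT6, 4 of 4 against 37.8%. At M they were 2.50, 1.26, 1.35 and 1.91 in the same order, 4 of 4 against 15.6%.

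Not all of these calls at V were firm. The DFR range at V was below the limit after median-of-ratios scaling (0.96), after quantile normalization (0.86) and without replicate 3 of V-XLS (0.93), and the UFGT range at V without replicate 3 of V-HJZ (0.91) or replicate 2 of V-ZHYS (0.95). The stage changes themselves also differed among zones for 4 of 4 genes, both from E to V (52.7% of all genes) and from V to M (46.6%), except that UFGT from E to V (1.07) was not called without replicate 3 of V-HJZ (0.95). CHS3 ranged over zones by 2.86 in its E to V change and by 1.48 in its V to M change.

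The other genes of the pathway lists, taken by symbol or synonym from the RefSeq gene table, numbered 23. Besides enzymes they include 8 regulators and 2 genes of anthocyanin transport and decoration, and all are called pathway genes here. The lists do not hold every gene of each enzyme family. From E to V, averaged over zones, 1 of 23 rose and 4 fell, against 13.2% of all genes called, and the median change was -0.22, against -0.02 over all genes. From V to M, 1 of 23 rose and 0 fell, against 3.5% of all genes, and from E to M, 3 rose and 6 fell, against 21.4%. At an unadjusted limma p below 0.05, 7 of 23 were higher and 10 lower from V to M. The share of all genes at that threshold is not given here. With 1 library left out, between 4 and 6 of them were called from E to V, against 8 without zone HSB and 10 with a pseudocount of 0.1 TPM. These counts are a description of a named list.

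Among the early steps, the other chalcone synthase genes followed CHS3 only in part. The stage mean of CHS2 was lowest at V, as was that of CHS3. Over the 18 group means of log2(TPM + 1), CHS3 had r = 0.36 with CHS2 and 0.13 with CHS1. LOC100232843 (CHS2) averaged 77.4 TPM at E, 35.8 TPM at V and 55.2 TPM at M, and LOC100263443 (CHS1) 15.5, 11.4 and 10.7 TPM. Neither was called in any mean over zones, and CHS3 had the highest mean of the 3 at every stage. Chalcone synthase genes are similar in sequence, so that reads may have been split between them by the counting and their separate levels are uncertain. M-HSB had the highest CHS2 level of the M groups at 117 TPM while CHS3 was at 89.0 TPM there. CHI (chalcone isomerase) rose from V to M, from 89.4 to 211 TPM (1.33, SE 0.11; limma adjusted p = 3.83e-13), and F3'H (flavonoid 3'-hydroxylase) fell from E to V, from 56.4 to 29.5 TPM (-1.04, SE 0.10; limma adjusted p = 3.25e-12). F3'H was not called without replicate 2 of V-XLS (-0.93), which had 16.74 TPM against 63.91 and 74.55 TPM in the other V-XLS libraries.

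The enzymes around DFR moved apart. LDOX (leucoanthocyanidin dioxygenase), which makes the anthocyanidins on which UFGT acts, averaged 84.2 TPM at E, 156 TPM at V and 87.7 TPM at M, and its change of 0.87 from E to V was not called, but passed without zone HSB (1.12). DFR and LDOX were thus both at 30.76 TPM or higher in every library, including those in which UFGT was listed at 0. In the tannin branch LAR2 fell from 226 TPM at E to 12.9 TPM at V (-4.03, SE 0.15; limma adjusted p = 8.33e-25), and ANR (anthocyanidin reductase) from 38.6 to 8.94 TPM (-2.36, SE 0.08; limma adjusted p = 1.24e-26). DFR, which feeds this branch too, averaged 126 TPM at E and 98.5 TPM at V. In the flavonol branch FLS1 (flavonol synthase) averaged 1.06 TPM at E and 8.07 TPM at M, a called rise of 1.64 (SE 0.12; limma adjusted p = 6.37e-16). Its highest group was M-XG, with 23.8 TPM, which was also the highest group of VVGT6.

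**Figure D4:**
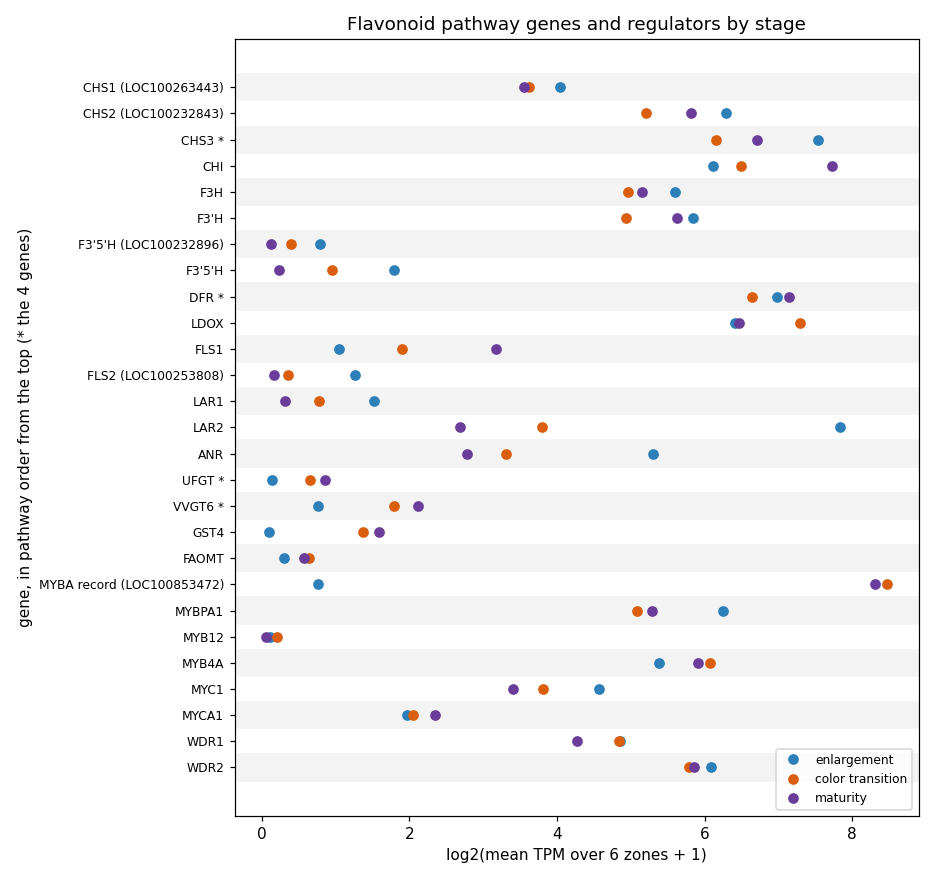
Mean level over the 6 zones at each stage, as log2(TPM + 1), for the 4 genes (asterisks) and 23 other flavonoid genes and regulators in pathway order. DFR and LDOX lie above 6 at all stages and UFGT below 1, and the MYBA record (LOC100853472) moves from below 1 at E to above 8 at V and M.

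Among the regulators, the record that carries MYBA names reached a high level at V and M. LOC100853472, whose RefSeq synonyms are mybA, MybA1, MybA3 and VvmybA3 and which is called the MYBA record here since it is not known which of these copies its reads came from, averaged 0.697 TPM at E, 355 TPM at V and 317 TPM at M. Its E to V change was 7.43 (SE 0.09; limma adjusted p = 8.91e-41), and at V and M its level lay between 72.26 and 763.03 TPM in every library. UFGT, the gene that MYBA factors are known to switch on in colored skins, was at most 3 TPM in these libraries. Both averaged below 1 TPM at E, and over the 18 group means of log2(TPM + 1) they had r = 0.73 and rho = 0.82. This is given as a description since groups share stages and zones, and it was not particular to this pair. UFGT had rho = 0.88 with FLS1 and 0.55 (GRIP61) to 0.76 (GRIP4) with the ripening genes. MYBPA1, a regulator of tannin genes, fell from 74.9 TPM at E to 32.9 TPM at V (-1.56, SE 0.10; limma adjusted p = 3.89e-17). MYB12, known in grape as the flavonol regulator MYBF1, did not exceed 1.01 TPM in any library.

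Genes that act after UFGT were low too, and in some groups they were uneven between replicates. GST4, a glutathione S-transferase needed to carry anthocyanins into the vacuole, was listed at 0 in 22 of 54 libraries. It reached 10.34 and 10.52 TPM in replicates 1 and 3 of M-CC and 1.54 TPM in replicate 2, the same division as for UFGT. In M-XG it was at 8.52, 1.34 and 0.67 TPM, highest in the replicate that was highest for UFGT. In V-HJZ it was at 0.59, 0.15 and 9.54 TPM, again highest in the library with the most UFGT (1.64 TPM). Some other groups did not show this. In V-XLS, GST4 was at 1.62, 3.59 and 1.54 TPM and UFGT was lowest in replicate 2. In V-CC and V-HSB the replicate with the most UFGT (0.46 and 0.56 TPM) had 0 and 0.46 TPM of GST4, the least in the group. FAOMT, an anthocyanin methyltransferase, was at 3.28, 0.36 and 2.62 TPM in M-CC and at 0.13, 0 and 2.03 TPM in V-HJZ. In M-XG it was at 0.53, 0 and 0.28 TPM.

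**Figure D5:**
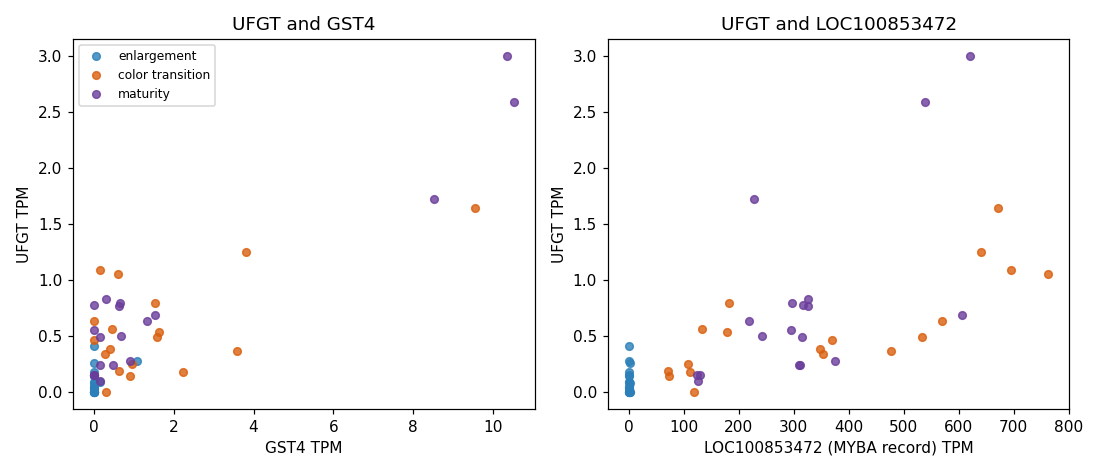
UFGT TPM in each of the 54 libraries (points, colored by stage) against GST4 TPM and against the TPM of the MYBA record (LOC100853472), on linear axes. The 2 libraries with the most UFGT, replicates 1 and 3 of M-CC, have over 10 TPM of GST4, and E libraries lie at or near 0 on every axis.

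The MYBA record did not divide the M-CC libraries in this way, as it was at 620.81, 605.83 and 537.74 TPM there. Seed and skin marker genes were sought by product name, but the gene table used gives no product names and none could be matched, so the share of other tissue in these libraries was not tested.

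The genes whose pattern was most like that of each of the 4 were found by Pearson correlation of log2(TPM + 1) over the 18 group means, among 16121 genes with a mean of at least 1 TPM. These are descriptions, as groups share stages and zones. MYBPA1 (r = 0.89) and F3'H (r = 0.88) were most like CHS3, followed by LOC100265192 (r = 0.83). DFR had no partner as close, with LOC100247244 (r = 0.81), LOC100264841 (r = 0.78) and LOC100265062 (r = 0.76). GST4 (r = 0.82) was most like UFGT, followed by LOC100233098 (r = 0.81) and LOC100251084 (r = 0.81). LOC100233098 was listed at 0 in all E libraries outside HJZ and was highest in V-HJZ (6.82 TPM on average), followed by V-XG (6.11 TPM), M-CC (5.99 TPM) and V-CC (4.80 TPM).

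VVGT6 was most like LOC100247914 (r = 0.93), then LOC100854193 and LOC100251437 (r = 0.88 for each). LOC100247914 is also the third gene before VVGT6 in the RefSeq gene order. Of the genes between them, LOC100265073 was measured, at 0 to 14.93 TPM. The levels of LOC100247914 were 6.22, 7.97 and 7.37 TPM in V-HJZ and 10.44, 9.28 and 8.84 TPM in M-XG, its 2 highest groups, which were those of VVGT6. LOC100247914 had the higher mean of the pair in some other groups, such as M-HJZ, with 5.33 ± 0.92 TPM (SD, n = 3) against 2.28 ± 0.87 TPM of VVGT6, and V-XLS, with 4.69 TPM against 2.04 TPM. Among the 4 genes, CHS3 and DFR had r = 0.53 over the 18 group means, UFGT and VVGT6 r = 0.63, and CHS3 and UFGT r = -0.37.

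The genes beside UFGT, chosen after the data had been seen, were expressed. The 3 genes on each side of it in the RefSeq gene order, LOC100252838, LOC100259733 and LOC100256288 before it and LOC100254624, LOC100242637 and LOC100247726 after it, were present in every library, with median levels from 7.18 to 51.5 TPM and no value below 3.47 TPM. UFGT had a median of 0.28 TPM over the same libraries.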

How the data were processed

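RNA of Chardonnay berry flesh was sequenced in 54 libraries, 3 for each of 18 stage by zone groups, taken from the labels; each replicate held 15 berries. The authors aligned clean reads with HISAT2 and counted fragments per gene with featureCounts (versions not given in the sources used here), and deposited the values as TPM, rounded to 2 decimals. The study points to the grapevine annotation of Ensembl Genomes release 23 without naming a build, while the table has NCBI Gene numbers. Replicates were not pooled. TPM keeps no depth.

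Changes were tested on log2(TPM + 1) with limma 3.58.1 (R 4.3.3), using 18 group means, a variance trend and 36 residual degrees of freedom. A gene was called at a Benjamini-Hochberg adjusted p below 0.05 over all 25133 genes with a change, or a range over zones in the moderated F tests, above 1. Tested on simulated data of 25133 genes, the fit of the mean E to V change recovered 200 of 200 genes changed by 2 on the log2 scale, with 0 other calls. Recovery of smaller changes, of changes within a zone and of differences among zones was not tested. Recovery was also not tested separately for genes near 0 TPM, such as UFGT. The alternatives were another pseudocount, a filter at 1 TPM, 2 scalings, no variance trend, zone means as the unit, zone HSB left out, only the groups compared, each library left out, and the replicate number as a block.

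Symbols and gene order came from the RefSeq table of assembly ASM3070453v1, which lists 23256 of the IDs; its coordinates were not used, and it gives no product names or sequences. Named genes are the 4 genes, pathway genes matched by symbol or synonym, ripening markers, and for each of the 4 the 3 genes with the highest correlation. Their nearest proteins, also planned, were not analysed here. The genes and lists were chosen with earlier results of these data known. No 2 libraries held identical values. The limma p-values given measure the spread between replicates within groups, also for means over zones, and the sign-flip p-values the spread between zones.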

Additional observations from a re-analysis of the deposited data

Results flagged for a closer look

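The change from E to V differed among the 6 zones for all 4 genes in the limma moderated F test, UFGT only with replicate 3 of V-HJZ included (0.95 without it). The range over zones was 2.86 for CHS3 (adjusted p = 5.90e-11), 2.87 for DFR (adjusted p = 1.24e-14), 1.07 for UFGT (adjusted p = 0.00323) and 3.12 for VVGT6 (adjusted p = 2.48e-12). For both CHS3 and DFR the change was lowest in CC and highest in HSB, while for VVGT6 it was highest in HJZ and lowest in XLS. The share of all genes for which this test was passed was 52.7%.

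The change from V to M also differed among zones for all 4 genes. The range was 1.48 for CHS3 (adjusted p = 0.000623), 1.32 for DFR (adjusted p = 1.13e-05), 1.53 for UFGT (adjusted p = 2.26e-05) and 3.24 for VVGT6 (adjusted p = 1.72e-13), against 46.6% of all genes passing. VVGT6 fell in HJZ and rose in XG between these stages.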

How the results depend on the processing

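No called value changed sign under any of the 682 values from other settings or the 1332 values with 1 library left out. These values include ranges over zones and counts of genes, which cannot change sign. A change of sign was seen for 13 uncalled values. With a pseudocount of 0.1 TPM the following were also called: the UFGT mean changes from E to V (1.65) and E to M (1.94), UFGT among zones at E (1.56) and the VVGT6 mean change from E to V (1.83), while 10 rather than 5 of the 23 other pathway genes were called from E to V and 4 rather than 1 from V to M. The same setting added 8 calls within zones: UFGT from E to V in CC (1.65), XG (2.59) and XLS (1.58) and from V to M in XLS (-1.47) and HSB (1.12), and VVGT6 from E to V in XG (1.29) and HSB (1.78) and from V to M in ZHYS (1.44). DFR among zones at V was lost with median-of-ratios scaling (0.96) and with quantile normalization (0.86), and the latter added CHS3 from E to M (-1.21) and VVGT6 from E to V (1.12). Without zone HSB, CHS3 from E to M was called (-1.09), with 8 pathway genes called from E to V; with zone means as the unit, 0 were called from V to M, a fit with fewer samples. With 1 library left out, the range was 0.91 to 1.09 for UFGT among zones at V, 0.95 to 1.19 for the UFGT E to V change among zones (lost without replicate 3 of V-HJZ), 0.93 to 1.45 for DFR among zones at V, and 1 to 2 pathway genes called from V to M (2 without replicate 3 of V-ZHYS). The filter at 1 TPM left UFGT without a value.

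Between groups, the median correlation of deviations was 0.01 for the same replicate number (-0.45 to 0.52) and -0.01 for different numbers (-0.60 to 0.52). The numbers thus showed no general pairing, but a median over all pairs of groups cannot exclude pairing within some of them. With the replicate number as a block no call on the 4 genes changed (CHS3 from E to V -1.52, limma adjusted p = 1.20e-17). From E to V, 3330 genes were called with or without it. As every group held each replicate number, the block could move p-values but not the estimates. The unchanged calls therefore do not decide whether replicates were paired. Values below 1 TPM, as for UFGT, rest on unknown read numbers.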
